A study of Rattus norvegicus with 9 samples.

Results

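Mitochondrial ribosomal proteins are the protein components of the ribosome that works inside mitochondria, and their transcripts were measured here in tibialis anterior muscle (TIB) of fed and fasted rats. Members were the genes whose symbol is Mrpl (large subunit) or Mrps (small subunit) followed by a number. Of the probe sets mapped to a single such symbol, the one with the highest average across the arrays stood for the gene. This gave 68 of the 14506 genes measured, with 41 genes of the large subunit and 27 of the small subunit, and they were covered by 72 of the 29215 probe sets.

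The muscle came from male Sprague Dawley rats, bought at the same age and housed singly with drinking water always available. The 3 groups were fed rats (Fed), which had a full stomach at sampling, rats fasted until phase 2 (P2), when body mass is lost slowly and body protein is spared, and rats fasted until phase 3 (P3), when body mass loss speeds up and body protein is used more. Each group had 3 rats, each on its own Affymetrix Rat Gene 1.0 ST array, without pooling and without technical replicates, and arrays are named by group and replicate. Phases were set by daily weighing, so P3 rats had also fasted for longer than P2 rats, and phase and length of the fast cannot be told apart.

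The mitochondrial ribosome translates the few messenger RNAs made from mitochondrial DNA, all of which encode subunits of the respiratory chain and of ATP synthase. Its RNAs are mitochondrial, but all of its proteins are encoded in the nucleus, made in the cytosol and imported. Some descend from proteins of the bacterial ribosome, and others were added in the mitochondrial lineage. Nuclear respiratory factor 1 (NRF1), the ETS-family factor GABP (also called NRF2) and YY1 are known to act at promoters of many nuclear genes for mitochondrial proteins.

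Members were spread over the genome: the 68 genes lay on 17 chromosomes, with at most 12 on a single one. Mrpl46 and Mrps11 lie head to head on chromosome 1, and the 120 bases before their starts overlap. Sequences before the start site are shown for the members that carry the extremes of the results below. Mrpl48, Mrpl12 and Mrps16 fell strongly, Mrpl32 and Mrpl41 rose, and Mrps18b was close to 0 in P3 versus Fed. Each is the 120 bases that end just before the gene's start, 5′ to 3′ on the strand of the gene, from RefSeq on the rat build GRCr8, with capitals for any match to the motifs given after them.
Mrpl48, chr1:164351377-164351496, minus strand: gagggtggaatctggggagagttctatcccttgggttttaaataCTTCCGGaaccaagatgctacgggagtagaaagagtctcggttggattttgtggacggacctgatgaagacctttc
Mrpl12, chr10:106256626-106256745, plus strand: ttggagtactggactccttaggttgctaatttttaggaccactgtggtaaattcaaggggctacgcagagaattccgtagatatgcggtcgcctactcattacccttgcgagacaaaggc
Mrps16, chr15:3967689-3967808, plus strand: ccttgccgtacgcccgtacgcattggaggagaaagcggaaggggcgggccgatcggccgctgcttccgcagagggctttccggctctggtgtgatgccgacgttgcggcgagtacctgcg
Mrpl32, chr17:55260531-55260650, plus strand: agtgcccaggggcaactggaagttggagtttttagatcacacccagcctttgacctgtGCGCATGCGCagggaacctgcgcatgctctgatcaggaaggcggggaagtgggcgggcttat
Mrpl41, chr3:28179756-28179875, minus strand: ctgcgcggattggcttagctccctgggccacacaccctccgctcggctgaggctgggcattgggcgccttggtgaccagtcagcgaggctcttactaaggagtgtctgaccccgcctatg
Mrps18b, chr20:2842886-2843005, plus strand: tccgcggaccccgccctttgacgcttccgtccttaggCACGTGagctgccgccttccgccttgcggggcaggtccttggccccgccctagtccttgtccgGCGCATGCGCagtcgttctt

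Motifs were searched by exact letters on both strands from 250 bases before to 50 bases after the start, and 54 of the 68 members had such a sequence. In the stretches shown, Mrpl48 has an ETS match, Mrpl32 an NRF1 match, Mrps18b an E-box and an NRF1 match, and the other genes none. The NRF1 motif, GCGCA, any base, then GCGC, was found for 9 of the 54 members, or 16.7%, against 7.39% of the 11950 measured genes with a sequence and 4.25% of all 33469 promoters. The ETS motif of GABP, CCGGAAG, was found for 18 members, or 33.3%, against 12.96% of measured genes and 8.75% of all promoters. The YY1 motif, AAGATGGC, was found for 14 members, or 25.9%, against 4.23% of measured genes and 3.17% of all promoters.

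All 3 motifs were thus found in a larger share of members than of measured genes, whereas GC content was alike, with a median of 56.2% in members and 58.0% in measured genes. The E-box CACGTG, a palindrome bound by MYC among others, was found for 6 members, or 11.1%, against 7.88% of measured genes and 6.42% of all promoters. Matches of different motifs did not overlap in members. Split by the results given below, the ETS motif was present in 7 of 28 members that fell in P3 and in 11 of the 26 others, NRF1 in 2 of 28 and 7 of 26, and YY1 in 7 of 28 and 7 of 26. These are descriptions of letters, without a test and without a measurement of binding.

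The values are log2 intensities, so a difference of 1 is a doubling or a halving, and they are relative within each array after quantile normalization. Levels of different genes come from different probes and are not compared as amounts. Array medians lay between 5.80 and 5.90, and Pearson's r over all probe sets was 0.987 to 0.994 within groups and 0.957 to 0.987 between groups. Of 9 skeletal muscle markers, Acta1, the actin of skeletal muscle fibres, stayed within 13.83 to 13.98 on the 9 arrays. It had the highest mean of all genes in each group, and whether its signal was near the upper limit of the arrays was not tested. Only Pvalb, a calcium buffer of fast fibres, passed the test given below in P3 versus Fed, with −1.87. Estimates were below 0 for 8 of the 9 in P3, and all P3 rats were below all Fed rats for 7, as for 20.1% of all probe sets. The log2 of their intensities summed on each array, in which the brightest probe sets weigh most, was 16.66 to 16.68 in Fed. It was 16.58 to 16.60 in P2 and 16.44 to 16.49 in P3. Whole muscle was used, so fewer cells of a type and less RNA per cell cannot be told apart. Ranges for the other cell types are likewise the log2 of summed intensities. Markers of slow fibres were lower for 6 of 7 genes in P3, at 13.6 to 13.8 in Fed, 12.5 to 13.3 in P2 and 12.3 to 12.9 in P3. Those of fibro-adipogenic cells were lower for 9 of 11 in P3, at 14.02 to 14.22 in Fed, 12.8 to 13.7 in P2 and 12.2 to 12.8 in P3. Of 10 adipocyte markers, 5 were higher in P2, and 3 were lower and 1 higher in P3, at 13.3 to 13.5 in Fed, 13.5 to 13.7 in P2 and 12.9 to 13.03 in P3. Of 6 satellite cell markers, 2 were lower in P3, at 9.10 to 9.21 in Fed, 8.99 to 9.19 in P2 and 8.53 to 8.65 in P3. Markers of macrophages, with 0 lower and 1 higher of 10, and of endothelial cells, with 0 lower and 1 higher of 9 in P3, spanned overlapping ranges. The part of these shifts in the results was not tested.

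Transcripts of mitochondrial ribosomal proteins were lower in both phases of fasting. In P2, 18 of the 68 members fell and none rose versus Fed (limma over all 29215 probe sets, adjusted p under 0.05), with fold changes on the log2 scale of −0.96 to 0.32 and a median of −0.22. In P3, 38 members fell and 3 rose versus Fed, with a median of −0.40. All measured genes had medians of 0.01 in P2 and −0.01 in P3. Both phases were set against the same 3 fed rats.

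The share of members that fell can be read against the array as a whole. In P2 it was 26.5% of members, against 4.15% of all probe sets and 5.57% of genes with a single symbol, and 5.13% of all probe sets and 7.07% of genes rose. In P3 it was 55.9% of members, against 13.4% of all probe sets and 17.1% of genes, and 15.8% of all probe sets and 18.2% of genes rose. At an unadjusted p under 0.05, 34 members were lower in P2 and 0 were higher. Of all 29215 probe sets, 2811 were lower and 3646 higher at this threshold, and of 14506 genes, 1745 and 2102. No member was called higher in P2 under any alternative setting, the Tukey test of the methods included. Without Fed 2 or P2 2 the P2 count was 11, and without P2 1 it was 26.

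The groups often did not overlap. All 3 P2 rats were below all 3 Fed rats for 35 members, as for 10.9% of all probe sets, and above them for 2 (Mrpl32 and Mrps35), against 13.3% of all probe sets. All 3 P3 rats were below all 3 Fed rats for 49 members, as for 20.1% of all probe sets, and above them for 5, against 22.3% of all probe sets. The median over the 68 members was 8.69, 8.63 and 8.73 on the Fed arrays, 8.53, 8.23 and 8.31 on the P2 arrays and 8.04, 8.15 and 8.11 on the P3 arrays. The groups did not overlap in this median, and P2 1 was the P2 array closest to Fed. The per-array map shows the same for single genes, with P2 1 paler than P2 2 and P2 3 in many rows.

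**Figure D1:**
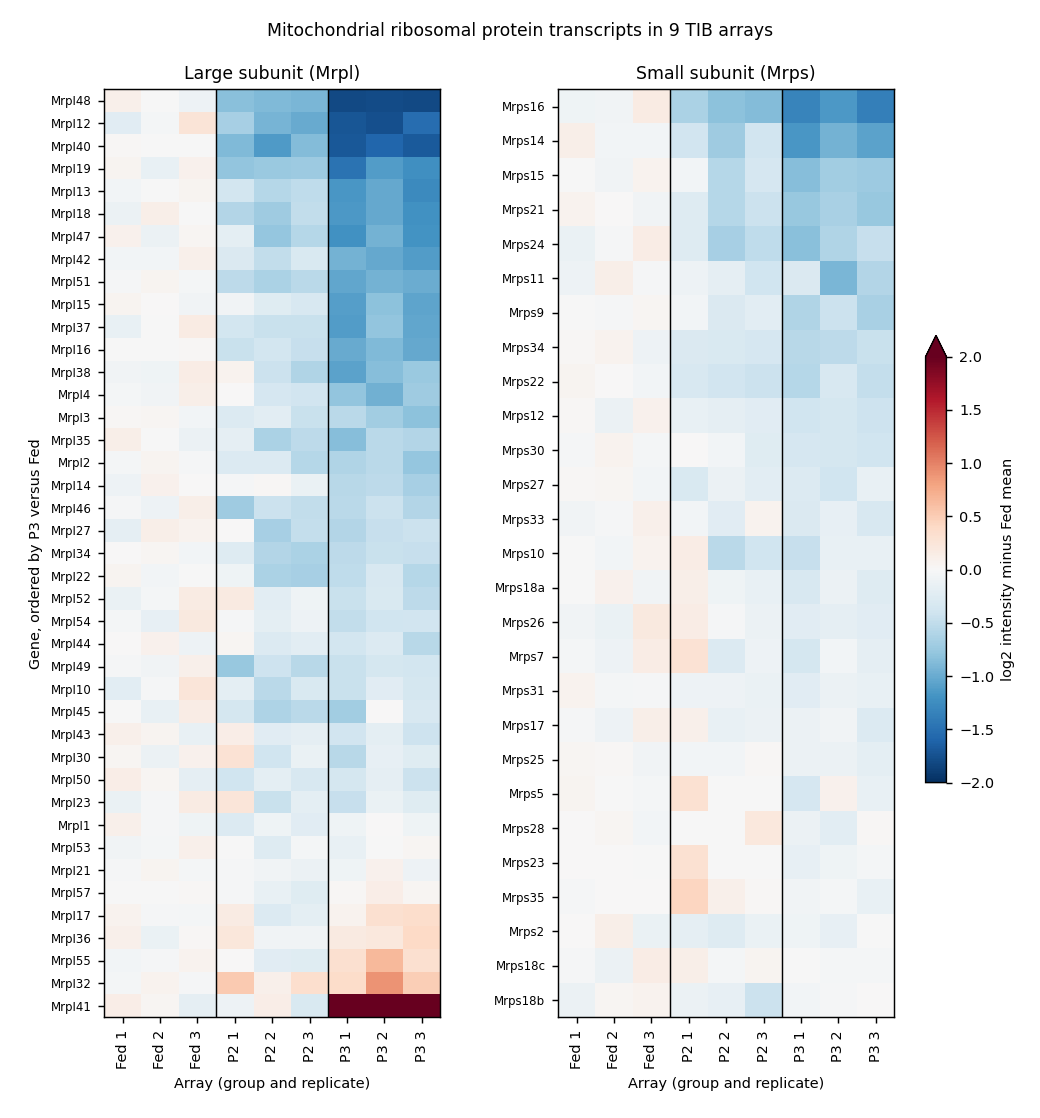
Log2 intensity of each of the 68 genes minus its mean in the 3 Fed rats (colour scale, −2 to 2, darkest red for values above 2), with genes in rows, ordered by P3 versus Fed within each subunit, and the 9 arrays in columns. Blue deepens from the Fed over the P2 to the P3 arrays in the upper rows of both panels, and Mrpl41 in the last row on the left is far above Fed in P3 and not in P2.

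The deepest fall was that of Mrpl48, a protein of the central protuberance, the part of the large subunit that faces the head of the small one. Its log2 intensity was 8.73, 8.62 and 8.52 in Fed rats, 7.78, 7.75 and 7.70 in P2 rats and 6.82, 6.83 and 6.81 in P3 rats. The 3 groups were fully apart and the P3 rats differed by little. The change was −1.80 ± 0.07 (SE) in P3 versus Fed (adjusted p = 4.45e-07), or 0.287 times the Fed level, and −0.88 ± 0.07 in P2 versus Fed (adjusted p = 0.000244).

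Mrpl40 is also a protein of the central protuberance with no bacterial counterpart. It was at 9.14, 9.11 and 9.10 in Fed rats, 8.23, 7.99 and 8.25 in P2 rats and 7.43, 7.53 and 7.44 in P3 rats. It fell the most of all members in P2 (−0.96 ± 0.08, adjusted p = 0.000329) and reached −1.65 ± 0.08 in P3 (adjusted p = 1.53e-06). Its second probe set gave −0.79 in P2 and −1.50 in P3.

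Mrpl12, the stalk protein to which translation factors dock, was more variable in Fed rats. It was at 8.18, 8.36 and 8.66 in Fed rats, 7.74, 7.48 and 7.40 in P2 rats and 6.69, 6.64 and 6.89 in P3 rats. The groups still did not overlap, with a P2 change of −0.86 ± 0.14 (adjusted p = 0.00589) and a P3 change of −1.66 ± 0.14 (adjusted p = 2.42e-05). Mrpl19, whose bacterial counterpart lies at the interface between the subunits, was at 8.17, 7.96 and 8.20 in Fed rats, 7.32, 7.37 and 7.38 in P2 rats and 6.63, 6.99 and 6.88 in P3 rats. It changed by −0.76 ± 0.10 in P2 and −1.28 ± 0.10 in P3, again with no overlap.

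In the small subunit, Mrps16 and Mrps14 fell most by the probe sets used; a second probe set of Mrps11, given below, fell further in P3 than either. Mrps16, whose bacterial counterpart is needed to assemble the small subunit, was at 8.77, 8.79 and 9.02 in Fed rats, 8.22, 8.04 and 7.998 in P2 rats and 7.54, 7.72 and 7.50 in P3 rats. Its P2 change was −0.77 ± 0.10 (adjusted p = 0.00211), and its P3 change −1.28 ± 0.10 (adjusted p = 1.76e-05). Mrps14, a protein of the head of the small subunit, was at 8.82, 8.64 and 8.64 in Fed rats, 8.31, 7.99 and 8.32 in P2 rats and 7.53, 7.76 and 7.63 in P3 rats. Neither gene had overlapping groups, and Mrps14 changed by −0.49 ± 0.11 in P2 and −1.06 ± 0.11 in P3.

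The other members with the deepest falls in P3 belong to the large subunit. Mrpl13 was at 8.38, 8.43 and 8.49 in Fed rats, 8.06, 7.87 and 7.92 in P2 rats and 7.27, 7.41 and 7.16 in P3 rats, a change of −1.15 ± 0.09 in P3. Mrpl18, whose bacterial counterpart binds 5S ribosomal RNA, was at 8.68, 8.92 and 8.79 in Fed rats, 8.21, 8.08 and 8.31 in P2 rats and 7.64, 7.77 and 7.59 in P3 rats, a change of −1.13 ± 0.09 in P3. In both, P2 rats lay between and apart from the other groups. Mrpl47 was at 9.74, 9.54 and 9.69 in Fed rats, 9.46, 8.89 and 9.09 in P2 rats and 8.45, 8.72 and 8.46 in P3 rats. It fell by 1.11 in P3 (SE 0.14, adjusted p = 0.00035), whereas its P2 change of −0.51 ± 0.14 did not pass the test (adjusted p = 0.0603). Mrpl42 was at 11.73, 11.72 and 11.88 in Fed rats, 11.48, 11.28 and 11.46 in P2 rats and 10.83, 10.75 and 10.66 in P3 rats. It changed by −1.03 ± 0.09 in P3, as did its second probe set, at a much lower intensity (8.39 in Fed), with −1.03 ± 0.12.

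Other members differed in their course between the phases. Mrpl16, whose bacterial counterpart lies near the peptidyl transferase centre, fell again between P2 and P3, with 9.44, 9.44 and 9.47 in Fed rats, 9.00, 9.08 and 8.98 in P2 rats and 8.44, 8.57 and 8.43 in P3 rats. It changed by −0.43 ± 0.07 in P2 and −0.97 ± 0.07 in P3. Mrpl51 was at 9.92, 9.996 and 9.91 in Fed rats, 9.41, 9.30 and 9.41 in P2 rats and 8.90, 8.99 and 8.95 in P3 rats, with −0.57 ± 0.07 in P2 and −0.99 ± 0.07 in P3. For Mrpl46 and Mrpl49, the mean in P3 rats was not below that in P2 rats. Mrpl46 was at 9.97, 9.89 and 10.11 in Fed rats, 9.28, 9.55 and 9.50 in P2 rats and 9.45, 9.55 and 9.41 in P3 rats. Mrpl49 was at 7.82, 7.77 and 7.94 in Fed rats, 7.09, 7.43 and 7.29 in P2 rats and 7.40, 7.49 and 7.47 in P3 rats. The P3 minus P2 differences were 0.03 ± 0.09 for Mrpl46 (adjusted p = 0.91) and 0.18 ± 0.10 for Mrpl49 (adjusted p = 0.289). Mrpl15 was the opposite case, with 8.98, 8.94 and 8.86 in Fed rats, 8.86, 8.69 and 8.61 in P2 rats and 7.83, 8.11 and 7.87 in P3 rats. Its change was −0.21 ± 0.10 in P2 (adjusted p = 0.257) and −0.78 ± 0.10 in P3 versus P2 (adjusted p = 0.000691).

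Between the phases, 21 members were lower in P3 than in P2 and 2 were higher, with a median change of −0.20 against −0.02 over all genes. This is 30.9% of members, against 7.52% of all probe sets and 10.4% of genes lower, and 8.50% of all probe sets and 11.4% of genes were higher. The P3 rats were all below the P2 rats for 31 members, as for 13.6% of all probe sets, and above them for 4, against 13.8% of all probe sets. After Mrpl41, given below, the largest changes were those of Mrpl48 (−0.92 ± 0.07), Mrpl12 (−0.80 ± 0.14), Mrpl15 (−0.78) and Mrpl40 (−0.69 ± 0.08). Without P2 1, the median P3 versus P2 change was −0.13.

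The members that fell in P2 and are not described with a P2 value above were Mrpl18 (−0.59), Mrpl49 (−0.57), Mrpl46 (−0.54), Mrpl34 (−0.49), Mrpl13 (−0.48), Mrpl37 (−0.42), Mrps21 (−0.41), Mrpl42 and Mrps22 (both −0.37) and Mrps34 (−0.31). The rest of the P3 falls were smaller. The large subunit genes were Mrpl37 (−0.98), Mrpl38 (−0.89), Mrpl4 (−0.82), Mrpl3 (−0.69), Mrpl35 (−0.66), Mrpl2 (−0.64), Mrpl14 (−0.58), Mrpl27 (−0.49), Mrpl34 (−0.48), Mrpl22 (−0.47), Mrpl52 and Mrpl54 (both −0.42) and Mrpl44 (−0.40), together with Mrpl15, Mrpl16, Mrpl46, Mrpl49 and Mrpl51. The small subunit genes were Mrps15 (−0.76), Mrps21 (−0.72), Mrps24 (−0.64), Mrps11 (−0.59), Mrps9 (−0.56), Mrps34 (−0.51), Mrps22 (−0.46), Mrps12 (−0.39), Mrps30 (−0.36) and Mrps27 (−0.27). Mrps12 is the counterpart of a bacterial protein at the decoding site. Mrps21 has a near copy in the RefSeq annotation, Mrps21l, and its signal may hold both. The 27 members that did not pass the test in P3 had changes of −0.34 to 0.26.

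For 4 members a second probe set existed. Those of Mrpl40, Mrpl41 and Mrpl42 gave calls of the same direction in P3 as the set used, but they may share probes with it and were not counted as separate evidence. For Mrps11 the probe sets gave different sizes: in P2, the set used changed by −0.23 (adjusted p = 0.438) and the other by −0.70 (adjusted p = 0.00764). In P3, the set used changed by −0.59 (adjusted p = 0.0162) and the other by −1.46 (adjusted p = 2.13e-05).

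**Figure D2:**
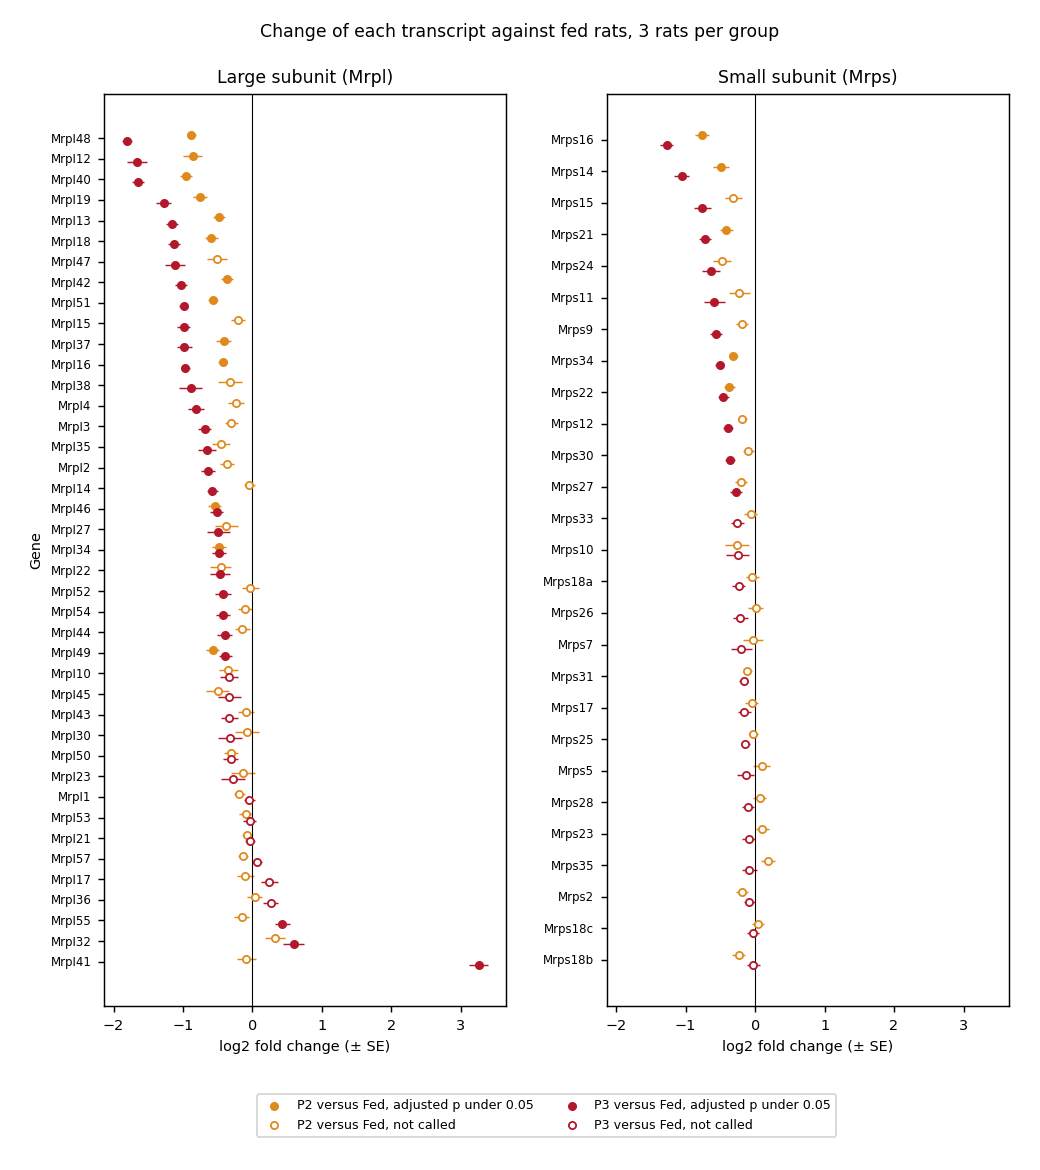
Log2 fold change versus Fed (horizontal axis, bars are ± SE) of each gene in P2 and P3, 3 rats per group, with filled points for an adjusted p under 0.05 in limma. Most points lie left of 0, from −1.80 for Mrpl48 in P3, and Mrpl41 in P3 stands alone on the right at 3.25.

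Only 3 members rose in P3, all of the large subunit. Mrpl41, a large subunit protein without a bacterial counterpart, was at 8.43, 8.35 and 8.13 in Fed rats, 8.20, 8.44 and 8.001 in P2 rats and 11.71, 11.55 and 11.41 in P3 rats. P2 and Fed overlapped, and every P3 rat was far above both. The change was 3.25 ± 0.13 in P3 versus Fed (adjusted p = 5.11e-07), or 9.55 times the Fed level, and 3.34 ± 0.13 in P3 versus P2 (adjusted p = 2.52e-06). In P2 versus Fed it was −0.09 ± 0.13 (adjusted p = 0.766).

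Of the 14506 genes, 23 had a larger P3 versus Fed change than Mrpl41. The means of its second probe set were 8.30 (Fed), 8.20 (P2) and 11.55 (P3). The measured genes near it in the RefSeq gene order changed less, with 0.47 ± 0.10 for Dph7 and −0.11 ± 0.16 for Zmynd19 on one side and 1.30 ± 0.15 for Nsmf on the other. Pnpla7, which lies between Mrpl41 and Nsmf, has no value here.

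Mrpl32, a large subunit protein that is cleaved by a mitochondrial protease before it is built in, was at 7.07, 7.16 and 7.07 in Fed rats, 7.63, 7.20 and 7.44 in P2 rats and 7.47, 8.01 and 7.60 in P3 rats. Both fasted groups lay above Fed and overlapped with each other. Its change was 0.59 ± 0.15 in P3 (adjusted p = 0.0154) and 0.32 ± 0.15 in P2 (adjusted p = 0.249). Of the genes beside it, Psma2 rose by more (1.28 ± 0.08 in P3), as did Ggps1 (1.07 ± 0.14) and Arid4b (0.96 ± 0.12) on the other side, whereas Hecw1, which lies between Mrpl32 and these, was at 0.09 ± 0.13. Mrpl55 was at 8.08, 8.11 and 8.21 in Fed rats, 8.14, 7.90 and 7.89 in P2 rats and 8.46, 8.77 and 8.45 in P3 rats. It rose in P3 versus Fed (0.43 ± 0.11, adjusted p = 0.0166) and versus P2 (0.58 ± 0.11, adjusted p = 0.00628). Its locus overlaps Guk1, which changed by −0.81 ± 0.13 in P3. At an adjusted p under 0.01 in P3 versus Fed, only Mrpl41 of these 3 was called.

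**Figure D3:**
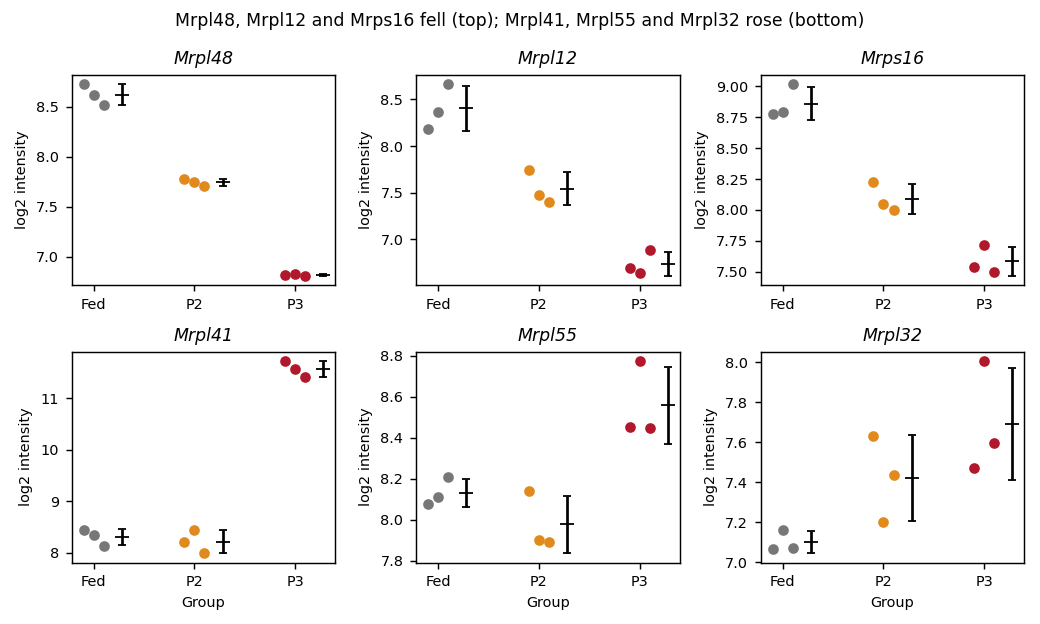
Log2 intensity (vertical axis, a scale of its own per gene) of 6 genes on the 9 arrays, with points for single rats and bars for mean ± SD of 3 rats. Mrpl48, Mrpl12 and Mrps16 step down at P2 and again at P3, Mrpl41 is high only in P3, and Mrpl55 and Mrpl32 are highest in P3, where P3 overlaps with P2 for Mrpl32.

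The paralogs Mrps18a, Mrps18b and Mrps18c all descend from bacterial S18, and structures place Mrps18a in the large subunit and the other two in the small. Mrps18a was at 8.98, 9.08 and 8.92 in Fed rats, 9.11, 8.90 and 8.84 in P2 rats and 8.67, 8.87 and 8.73 in P3 rats. Mrps18b was at 9.26, 9.42 and 9.44 in Fed rats, 9.26, 9.20 and 8.94 in P2 rats and 9.31, 9.34 and 9.37 in P3 rats. Mrps18c was at 10.60, 10.51 and 10.78 in Fed rats, 10.74, 10.58 and 10.68 in P2 rats and 10.62, 10.59 and 10.59 in P3 rats. None passed the test in any comparison, with P3 versus Fed changes of −0.24 ± 0.09 for Mrps18a, −0.03 ± 0.09 for Mrps18b and −0.03 ± 0.08 for Mrps18c.

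Both subunits were lower, with a larger median fall over the large subunit genes. In P3, 26 of 41 large subunit genes fell and 3 rose, with a median of −0.48, and 12 of 27 small subunit genes fell and none rose, with a median of −0.25. In P2, 13 of 41 large subunit genes fell, with a median of −0.32, and 5 of 27 small subunit genes, with a median of −0.18. In P3 versus P2, 15 large subunit genes fell and 2 rose, with a median of −0.24, and 6 small subunit genes fell, with a median of −0.20. All 27 small subunit estimates were below 0 in P3, and 35 of 41 in the large subunit.

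The median change of the large subunit minus that of the small was −0.22 in P3 and −0.14 in P2. With Mrps30 and Mrps18a counted in the large subunit, where structures place them, it was −0.21 in P3 and −0.12 in P2. Means in place of medians gave −0.12 in P3, and −0.21 with Mrpl41 left out. The mean over large subunit genes other than Mrpl41, minus the mean over small subunit genes, was −0.06, −0.06 and −0.04 on the Fed arrays, −0.21, −0.23 and −0.23 on the P2 arrays and −0.30, −0.22 and −0.30 on the P3 arrays. All fasted rats were thus below all fed rats, and P2 and P3 overlapped. With medians over all genes of a subunit the difference was −0.20, −0.20 and −0.08 on the Fed arrays, −0.32, −0.22 and −0.31 on the P2 arrays and −0.38, −0.33 and −0.29 on the P3 arrays. These differences over chosen members are descriptions and have no test.

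**Figure D4:**
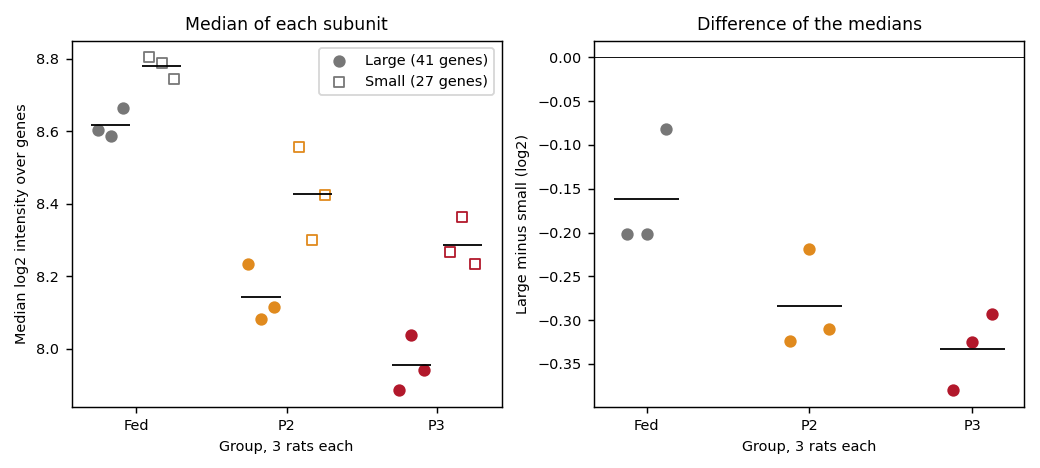
Left, median log2 intensity over the 41 large and 27 small subunit genes on each array, and right, large minus small, with lines at the mean of 3 rats. The mean of both subunits is lower in P2 and lower again in P3. P2 and P3 arrays are apart for the large subunit and overlap for the small one, where P3 2 (8.36) lies above P2 2 (8.30). The mean difference is about −0.16 in Fed, −0.28 in P2 and −0.33 in P3.

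Members with and without a bacterial counterpart were both lower. Of 41 members with a bacterial counterpart, 23 fell in P3, with a median of −0.48, and of 27 without one, 15 fell, with a median of −0.36.

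Counts in this and the following lists can be read against all genes. Of these, 5.57% were lower and 7.07% higher in P2, and 17.1% were lower and 18.2% higher in P3. Of 5 measured proteins of the mitochondrial ribosome with other names, 1 fell in P2 and 3 fell in P3. In P3, Chchd1 changed by −1.11 ± 0.31, Gadd45gip1 by −0.99 ± 0.13 and Ptcd3 by −0.57 ± 0.11, and Dap3 and Aurkaip1 did not pass the test. Of 11 translation factors and related proteins of mitochondria, 5 fell in P2 and 9 in P3, where 1 rose, with a P3 median of −0.55. The largest P3 falls were those of Taco1, an activator of the translation of a cytochrome c oxidase subunit (−1.56 ± 0.08), Guf1, a translational GTPase (−1.37 ± 0.06), Slirp, which stabilises mitochondrial messenger RNA (−0.98 ± 0.12), and Tufm, the elongation factor that brings charged tRNA to the ribosome (−0.71 ± 0.10). Mrrf, the ribosome recycling factor, rose by 0.33 ± 0.10 (adjusted p = 0.0426).

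Among 13 mitochondrial aminoacyl-tRNA synthetases and genes of the same task, 5 fell in P2, and 7 fell and 1 rose in P3, with a P3 median of −0.39. Qrsl1 (−1.80 ± 0.09) and Gatc (−0.82 ± 0.10), subunits of the amidotransferase that makes glutaminyl-tRNA, and the synthetases Tars2 (−1.08 ± 0.11) and Sars2 (−0.80 ± 0.09) had the largest falls. Rars2 rose by 0.56 ± 0.10. Of 22 factors that assemble the mitochondrial ribosome, 1 fell in P2, and 4 fell and 5 rose in P3, which is near the shares of all genes (17.1% lower and 18.2% higher in P3). Their medians were 0.03 in P2 and 0.06 in P3. Trub2 (−0.93 ± 0.11), Rbfa (−0.72 ± 0.12) and Nsun4 (−0.45 ± 0.14) fell, and Rpusd3 rose by 0.72 ± 0.07.

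**Figure D5:**
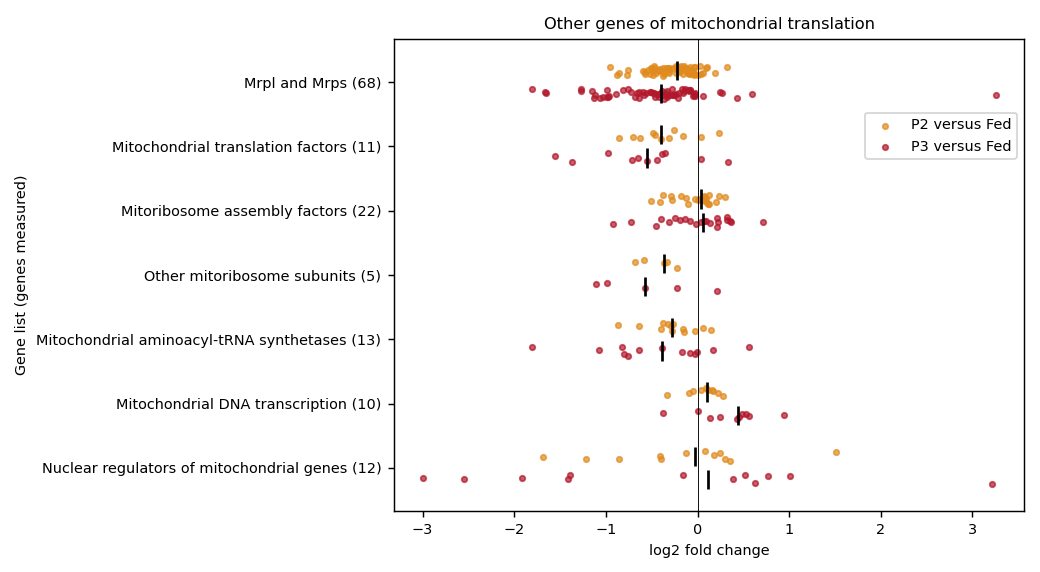
Log2 fold change versus Fed (horizontal axis) of each gene of 7 lists in P2 and P3, with black bars at the medians and the number of genes measured in brackets. The median in P3 is −0.40 for Mrpl and Mrps genes, −0.55 for translation factors, 0.06 for assembly factors and 0.44 for genes of mitochondrial DNA transcription.

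Genes that transcribe and copy mitochondrial DNA went mostly the other way. Of 10 measured, 6 rose and 1 fell in P3, with a median of 0.44, and 1 fell in P2. Mterf1 rose by 0.94 ± 0.18, Polg2, a subunit of the mitochondrial DNA polymerase, by 0.57 ± 0.14, Tfam, which packs mitochondrial DNA and starts its transcription, by 0.53 ± 0.15, and Tfb2m, a transcription initiation factor, by 0.48 ± 0.12. Cytosolic ribosomal proteins, which build the ribosome outside mitochondria, had no member that fell. Of 68 measured, 1 rose in P2 and 13 rose in P3, a share near that of all genes (18.2% higher in P3). None fell in either phase, also at an unadjusted p under 0.05, with medians of 0.14 in P2 and 0.16 in P3. At that unadjusted threshold 16 were higher in P2 and 27 in P3, against 2102 and 3189 of 14506 genes. In P3, 58 estimates were above 0. All P3 rats were above all Fed rats for 39, against 22.3% of all probe sets, and below them for 2, against 20.1%.

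Of 12 nuclear regulators of mitochondrial genes, 3 fell and 3 rose in P2, and 5 fell and 6 rose in P3. Over all genes, 5.57% were lower and 7.07% higher in P2, and 17.1% were lower and 18.2% higher in P3. Ppargc1a and Ppargc1b, which encode coactivators of the PGC-1 family, fell in P3, whereas Pprc1, the third gene of that family, rose by 0.62 ± 0.11 (adjusted p = 0.00263). Perm1, a muscle regulator that acts with PGC-1 and ERR proteins, was at 10.80, 11.01 and 11.07 in Fed rats, 8.85, 9.61 and 9.36 in P2 rats and 7.72, 8.04 and 8.10 in P3 rats (−3.001 ± 0.19 in P3). Ppargc1b was at 8.76, 8.92 and 8.76 in Fed rats, 7.48, 7.67 and 7.64 in P2 rats and 6.12, 6.25 and 6.43 in P3 rats (−2.55 ± 0.10). Ppargc1a changed by −0.39 ± 0.14 in P2 (adjusted p = 0.13) and by −1.91 ± 0.14 in P3. Myc was the one that rose most, with 6.17, 5.99 and 6.10 in Fed rats, 7.55, 7.73 and 7.52 in P2 rats and 9.19, 9.12 and 9.59 in P3 rats (3.21 ± 0.13 in P3). The transcripts of the factors whose motifs are given above also rose in P3. Gabpa changed by 1.00 ± 0.09, Nrf1 by 0.77 ± 0.08 and Yy1 by 0.39 ± 0.07. In P2, Nrf1 (0.36 ± 0.08) and Yy1 (0.30 ± 0.07) passed the test, and Gabpa (0.24 ± 0.09) did not. A link between these factors and the members was not tested.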

How the data were processed

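The authors hybridised rRNA-depleted total RNA of tibialis anterior muscle and made the deposited log2 intensities with RMA (sketch quantile normalization and median polish) in Affymetrix Expression Console 1.1. They were used unchanged. Genes come from the platform annotation, where 15310 of 29215 probe sets have 1 symbol, 323 several and 13582 none. R 4.3.3 and limma 3.58.1 fitted 3 group means to all 9 arrays (lmFit, then eBayes, 2.87 prior degrees of freedom). P-values were two-sided and adjusted over all probe sets of each comparison by the Benjamini-Hochberg method, with calls at an adjusted p under 0.05. The fit was tested on simulated data. Figures used Python 3.11.15 and matplotlib 3.10.9.

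Members and lists were chosen with earlier results of these data known. Values in every sample are given for the 10 deepest P3 falls, up to 10 members called in P2, every member that rose, the 5 largest P3 versus P2 changes, members that the study's text names and the Mrps18 paralogs. Of each pathway list other than cytosolic ribosomal proteins, the P3 changes of up to 4 of the most changed called genes are given. Mrrf, Rars2, Pprc1, Gabpa, Nrf1 and Yy1 were named after their values were seen. With 3 arrays per group, their number limits the precision. Alternatives were other normalizations, filters, variance models, thresholds, samples and summaries, replicate numbers as a block, each array left out, and the Tukey test of the methods at p under 0.001, which was also run with Benjamini-Hochberg adjustment. That adjustment and the mean without Mrpl41 were added after seeing the data. Some members of the family have no probe set with 1 symbol and were not analysed here. Mrpl24, which the study's text names as lower in P2 along with Mrps16 and Mrpl16, is among them.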

Additional observations from a re-analysis of the deposited data

Results flagged for a closer look

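Mrpl41 and Mrpl55 drew a closer look because their estimates against fed rats had opposite signs in P3 and P2, and the test between the phases passed. Mrpl41 changed by 3.25 in P3 and −0.09 in P2 versus Fed, and the P3 minus P2 difference was 3.34 (limma adjusted p = 2.52e-06), with all 3 P3 rats above all P2 and Fed rats. Mrpl55 changed by 0.43 in P3 and −0.15 in P2 versus Fed, and the P3 minus P2 difference was 0.58 (adjusted p = 0.00628), again with all 3 P3 rats above the others. The P2 estimates of both genes did not pass the test, and that of Mrpl41 was 0.019, the same sign as in P3, without P2 3. Both phases share the 3 fed rats.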

How the results depend on the processing

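Signs were followed for the members with values given in every sample, and none of their called changes reversed. The medians of members and of large minus small subunit also kept their sign. Other members were not checked for this. A count has no sign, and settings that alter only the threshold or the test keep every fold change. Among the members followed, estimates that did not pass the test and lay near 0 changed sign in 10 cases. Mrpl46 in P3 versus P2 was −0.051 after quantile normalization once more, −0.033 with array weights and −0.054 (without P2 1) to 0.083 with an array left out. With an array left out, Mrpl41 ranged from −0.20 to 0.019 (without P2 3), Mrps18a from −0.12 to 0.015 and Mrps18c from −0.019 to 0.11 in P2 versus Fed. In P3 versus Fed, Mrps18b ranged from −0.084 to 0.0021 and Mrps18c from −0.089 to 0.043. Replicate numbers did not pair the arrays (same-numbered correlations of −0.24 to 0.12). With the replicate number as a block, 13 members were lower in P2 versus Fed, 35 in P3 versus Fed and 18 in P3 versus P2, against 18, 38 and 21 without it. The cause of the shifts below was not tested, except that stricter thresholds call fewer genes by construction. Members lower in P2 versus Fed numbered 29 with array weights, 11 at an adjusted p under 0.01, 6 with a change of at least 1.5-fold, 5 by the Tukey test of the methods and 0 with its Benjamini-Hochberg adjustment. Leaving out an array gave 11 (without Fed 2 or P2 2) to 26 (without P2 1). In P3 versus Fed, 23 were lower with at least 1.5-fold, 18 by the Tukey test and 5 with its adjustment, and 1 was higher by the Tukey test with or without adjustment and at an adjusted p under 0.01. In P3 versus P2, 7 were lower with at least 1.5-fold, 8 by the Tukey test and 0 with its adjustment. Members higher in P3 versus P2 numbered 6 with array weights, 1 with at least 1.5-fold and by the Tukey test with or without adjustment, and 2 to 4 with an array left out (4 without P2 1). The large minus small subunit difference was −0.12 in P3 with means, and −0.21 with Mrpl41 left out of them. In P2 it ranged from −0.22 (without P2 1) to −0.13 with an array left out. Of the alternative values for named members, 1264 kept their direction and side of the threshold, 10 changed sign, 103 no longer passed and 9 newly passed.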
